A study of Mus musculus with 12 samples.

Results

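The colony-stimulating factors and their receptors were described here through 9 genes of the count table, chosen by gene symbol from 19910 listed genes: the 3 ligand genes Csf1, Csf2 and Csf3 and the 6 receptor genes Csf1r, Csf3r, Csf2ra, Il3ra, Csf2rb and Csf2rb2. RNA sequencing covered 12 libraries of mouse bone marrow cells, 3 for each of 4 double retroviral transductions. The empty group carried EMPTY+EMPTY vectors, the SETBP1 group SETBP1 (D868N)+EMPTY, the NRAS group EMPTY+NRAS (G12D), and the group with both mutants SETBP1 (D868N)+NRAS (G12D), so all groups, controls included, carried a pair of retroviral vectors. NRAS is a small GTPase that relays signals of these receptors and is held in its active form by this mutation, and the product of SETBP1 is a DNA-binding protein of the nucleus. The marrow came from female C57BL/6J mice aged 6 to 10 weeks, and virus was packaged in 293T17 cells, a human embryonic kidney line. The sample titles call all of the cells murine leukemia cells. The promoter that drives each insert, the culture conditions and whether replicates were separate mice or cultures are not given in the sources used here, so p-values measure the spread between these libraries, which may be technical.

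Colony-stimulating factors are secreted proteins that drive the survival, division and maturation of myeloid cells. Csf1 (M-CSF) acts on macrophages and their precursors through the receptor tyrosine kinase Csf1r. Csf3 (G-CSF) acts on granulocytes through Csf3r, which signals as a pair of identical chains. Csf2 (GM-CSF) binds the alpha chain Csf2ra and interleukin 3 binds the alpha chain Il3ra, and both alpha chains signal through the shared beta chain Csf2rb. Mice also have Csf2rb2, a close copy of the beta chain that pairs with the interleukin 3 alpha chain. RAS proteins lie on the signalling path of all of these receptors.

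The introduced genes followed the labels: Nras had 626 to 741 reads in the empty libraries and 708 to 722 in the SETBP1 libraries, against 10517 to 13502 with NRAS and 10988 to 12501 with both. Setbp1 had 0 reads in the empty and NRAS libraries, 5 to 7 with SETBP1 and 11 to 17 with both. Total counts per library ran from 7085894 to 8864919. SETBP1 replicate 3 stood apart, with correlations of 0.946 and 0.953 to the rest of its group against 0.984 to 0.991 for the other pairs within groups. The labelled marrow origin was reflected in granule and monocyte genes. Pax5 of B cells, Cd3e and Ncr1 of T and NK cells and the globins Hba-a1 and Hbb-bs were at 0 in every library. So were Col3a1, Pdgfra, Lum and Cxcl12 of stroma. Other markers of the same cell types had reads. In normalised CPM (library-scaled counts), marker sums ran from 7.93 to 21.6 for B cells and 4.34 to 10.8 for T and NK cells. They ran from 1.66 to 12.6 for erythroid cells and 74.9 to 288 for stroma and endothelium. The genes at 0 thus do not show that such cells were absent.

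With NRAS, alone or beside SETBP1, the ligand gene Csf1 rose and the receptor genes Csf3r, Csf2ra and Csf2rb2 fell relative to empty vectors. With SETBP1 alone Csf1r rose and Csf2rb fell. Csf2 and Csf3 had no read in any library without NRAS. Csf3 reads were most numerous with both mutants. Of the 9 genes, 8 passed the filter on low counts, which left out Csf2. Csf3 passed only through the group in which it is high and was picked from earlier readings of these libraries for that rise, so it is described without a test and the counts below are over 7 genes. The calls are those of edgeR's quasi-likelihood test at a Benjamini-Hochberg adjusted p under 0.05 over 10993 genes.

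Against empty vectors, 2 of the 7 genes passed with SETBP1 (1 higher, 1 lower), where 14.9% of all tested genes passed. With NRAS 4 of 7 passed (1 higher, 3 lower) against 32.5% of all genes, and with both mutants 4 of 7 (1 higher, 3 lower) against 40.6%. Between both mutants and NRAS none of the 7 passed, where 1.91% of all genes did, 1283 of them at an unadjusted p under 0.05 and 210 after adjustment. Between both mutants and SETBP1 6 of 7 passed (1 higher, 5 lower) against 42.4% of all genes. The interaction asks whether the log2 effect of SETBP1 differs between cells with and without NRAS, and it gave 0 of 7 calls with edgeR against 0.0455% of all genes, or 5 genes after adjustment and 1420 at an unadjusted p under 0.05. The median log2 change of the 7 genes was 0.08 for SETBP1, -0.60 for NRAS and -0.54 for both against empty, 0.06 for both against NRAS and -0.57 for both against SETBP1, while the median over all tested genes lay between -0.01 and 0.00. With only 7 genes these counts describe the family and do not set it apart from other genes. The comparisons share libraries and are not independent of each other.

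**Figure D1:**
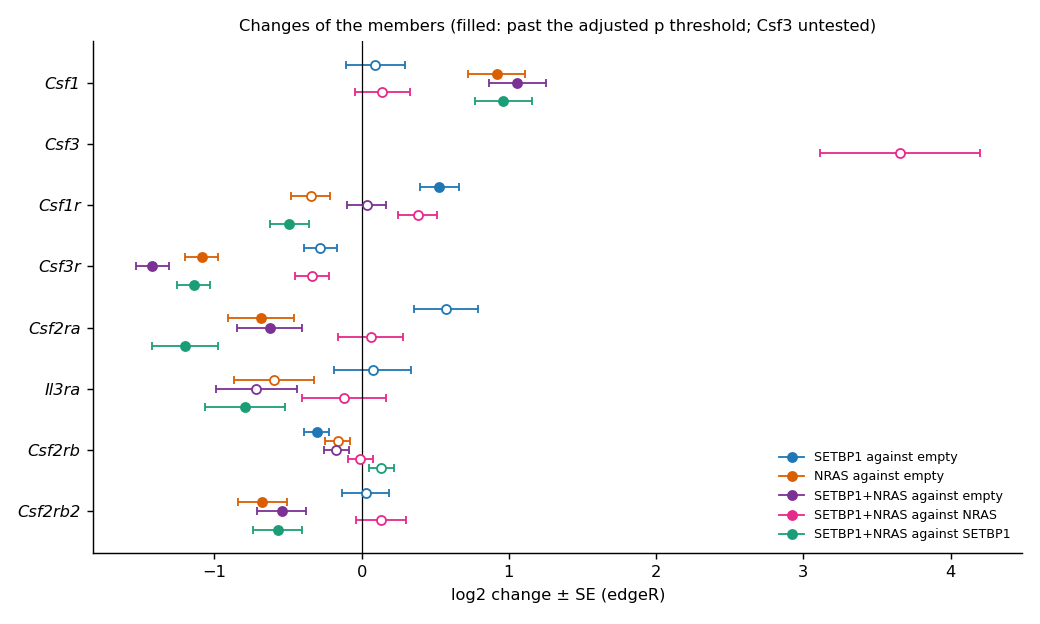
The x axis gives the log2 change with its standard error from edgeR for each gene (rows) in 5 comparisons (colours), filled where the adjusted p is under 0.05, with Csf3 shown untested for both mutants against NRAS. Csf1 lies to the right and Csf3r to the left of 0 in each comparison that adds NRAS, and the Csf3 difference of 3.66 lies beyond all of the others.

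Set per kilobase of exon, so that genes of different length can be compared, the receptors were far above the ligands. Levels are library-scaled counts with trimmed-mean factors (normalised CPM). Csf2ra had a median of 101 normalised CPM per kb over the 12 libraries (range 66.3 to 284), Csf2rb 74.9 (65.2 to 98.1) and Csf1r 68.1 (52.3 to 128). These top 3 genes changed places between libraries, and their ranges overlap. Csf3r followed at 23.6 per kb (14.2 to 43.3) and was rank 4 in each of the 12 libraries. Csf2rb2 had a median of 7.38 per kb (5.63 to 12.9), Il3ra 4.53 (2.14 to 6.86) and Csf1 3.17 (1.91 to 5.39), and Il3ra and Csf1 overlapped in range. Csf3, with a median of 0.187 (0 to 13.5), and Csf2, with a median of 0 (0 to 1.52), were lowest in most libraries, although Csf3 ranked as high as 5 with both mutants.

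**Figure D2:**
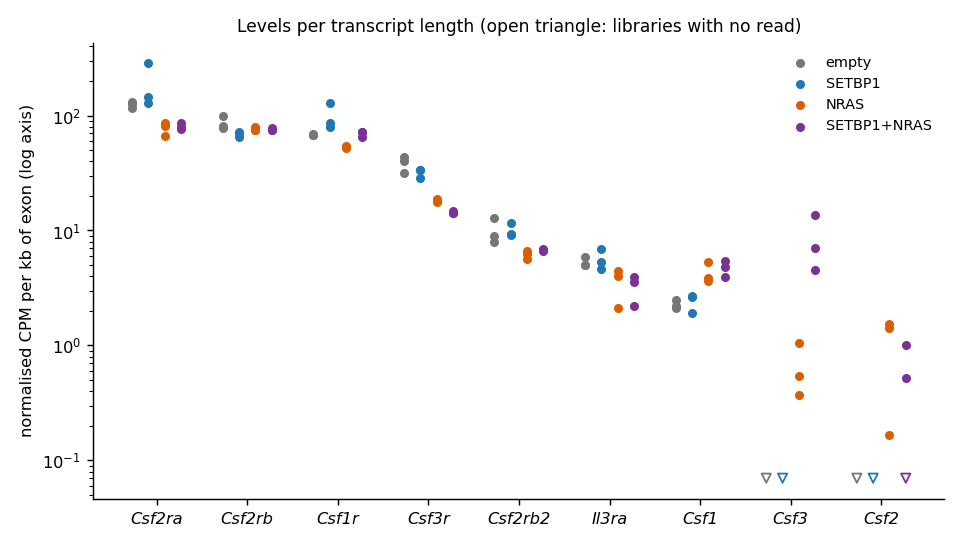
The y axis gives normalised CPM per kb of exon on a log scale, with 1 point per library and open triangles for libraries without a read, for the 9 genes in order of their median. The 4 receptor genes Csf2ra, Csf2rb, Csf1r and Csf3r lie above 14 per kb in all 12 libraries, and the ligand Csf1 does not exceed 5.39.

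Csf1 encodes macrophage colony-stimulating factor and lies on the minus strand at chr3:107741048-107760469 (mm10). Its normalised CPM were 10.4, 9.91 and 11.7 in the empty libraries and 12.6, 9.02 and 12.4 with SETBP1. They were 18.1, 17.3 and 25.0 with NRAS and 18.6, 22.5 and 25.4 with both. All 6 libraries with NRAS were above all 6 without it, and the empty and SETBP1 libraries overlapped, as did the NRAS and both-mutant libraries. Csf1 rose 1.89-fold with NRAS against empty (log2 0.92, SE 0.19, adjusted p 0.00250), 2.08-fold with both against empty (log2 1.06, SE 0.19, adjusted p 6.47e-04) and 1.95-fold with both against SETBP1 (log2 0.96, SE 0.19, adjusted p 0.00133). SETBP1 alone gave a log2 difference of 0.09 (SE 0.20, adjusted p 0.767), and adding SETBP1 to NRAS gave 0.14 (SE 0.19, adjusted p 0.907).

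Csf2 encodes granulocyte-macrophage colony-stimulating factor and lies on the minus strand at chr11:54247271-54249667 (mm10), where it overlaps the antisense gene Gm12223. It had 0 reads in the 3 empty and the 3 SETBP1 libraries. Read numbers were 1, 9 and 9 with NRAS and 3, 0 and 6 with both. Every library with more than 0 reads carried NRAS, and the NRAS and both-mutant libraries overlapped. Against a floor of 3 counts in the empty library where that floor is highest, Csf2 was at least 2.05-fold higher with NRAS, at 0.830 ± 0.606 normalised CPM (SD, n = 3). The mean with both mutants, 0.409 ± 0.404 normalised CPM (SD, n = 3), was at that floor and allows no fold. Since the counting is not stated to use strand, reads of Csf2 and Gm12223 cannot be told apart, and the same holds for the antisense partners of Csf1r and Il3ra named further on.

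Csf3 encodes granulocyte colony-stimulating factor and lies on the plus strand at chr11:98701263-98703629 (mm10). It too had 0 reads in the 3 empty and the 3 SETBP1 libraries. Read numbers were 4, 11 and 6 with NRAS and 71, 50 and 142 with both, which is 0.529, 1.49 and 0.761 normalised CPM and 9.93, 6.40 and 19.1 normalised CPM. The NRAS and both-mutant libraries were apart: the lowest of the both-mutant libraries was 4.30-fold above the highest of the NRAS libraries, while the both-mutant libraries themselves spanned 2.99-fold. The group means were 0.926 ± 0.501 and 11.8 ± 6.56 normalised CPM (SD, n = 3), a ratio of 12.8, and the fitted log2 difference was 3.66 (SE 0.54). Against the floor of 3 counts, Csf3 with both mutants was at least 29.2-fold above empty and at least 30.1-fold above SETBP1, and with NRAS at least 2.29-fold above empty. Because this gene was picked from this same difference, its values stand as a description. Among 10 markers of stroma and endothelium, which make Csf3 in marrow, 4 were at 0 in every library and 3 could be tested. The 3 were Pdgfrb, Pecam1 and Kdr. The sum of the 10 was 102 to 119 normalised CPM with empty vectors and 74.9 to 83.6 with SETBP1. It was 183 to 288 with NRAS and 186 to 204 with both, and is weighted to its most abundant genes. Against empty vectors, 3 of the 3 tested markers passed as higher with NRAS (32.5% of all genes) and 2 with both (40.6%). With SETBP1 1 passed as lower (14.9%), and between both and NRAS none passed (1.91%). The part of such cells in the Csf1 and Csf3 differences was not tested.

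**Figure D3:**
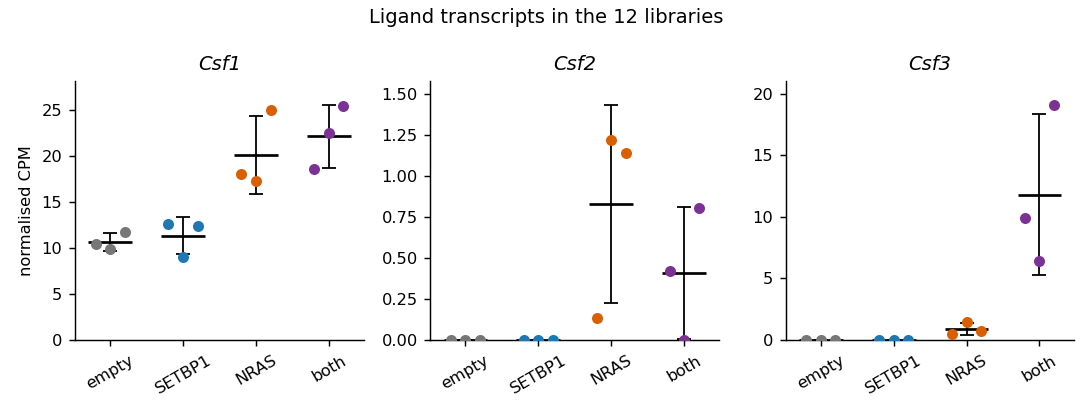
Each panel gives the normalised CPM (y axis, from 0) of 1 ligand gene in the 3 libraries of each group, with the mean as a bar and the SD as error bars. Csf1 is read in all 12 libraries and lies higher in the 6 with NRAS, Csf2 stays under 1.25 and Csf3 reaches 19.1 in 1 library with both mutants.

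The other ligands of the same receptors were next to absent. Il3, the ligand of Il3ra, had 0 reads in all 12 libraries. Il34, the other ligand of Csf1r, and Il5, which signals through Csf2rb, had 1 read each, both in empty libraries. Il5ra, the alpha chain for Il5, had 4 reads over the empty libraries, 3 over the NRAS libraries and 0 with SETBP1 or both. No change could be measured for these 4 genes at this depth.

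Csf1r, the receptor of Csf1 and a defining gene of the monocyte line, lies on the plus strand at chr18:61100598-61132149 (mm10) and overlaps the antisense gene Hmgxb3. Its normalised CPM were 329, 337 and 328 with empty vectors and 389, 418 and 624 with SETBP1. They were 267, 260 and 256 with NRAS and 320, 348 and 351 with both. The SETBP1 libraries lay above all others, with replicate 3 highest, the NRAS libraries lay below all others, and the empty and both-mutant libraries overlapped. Csf1r rose 1.44-fold with SETBP1 against empty (log2 0.53, SE 0.13, adjusted p 0.0205) and was 1.40-fold lower with both than with SETBP1 (log2 -0.49, SE 0.13, adjusted p 0.00913). With NRAS the difference from empty was -0.34 (SE 0.13, adjusted p 0.0619), with both it was 0.04 (SE 0.13, adjusted p 0.853), and between both and NRAS it was 0.38 (SE 0.13, adjusted p 0.219).

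Which Csf1r differences passed turned on single libraries and settings. Without SETBP1 replicate 3, Csf1r was still higher with SETBP1, by log2 0.28 (adjusted p 0.00466), and the differences of NRAS from empty and of both from NRAS kept their size, -0.34 and 0.38, and passed (adjusted p 5.45e-05 and 1.81e-04). The NRAS difference also passed without SETBP1 replicate 1 (adjusted p 0.0261). The rise with SETBP1 did not pass without empty replicate 1 (adjusted p 0.0734), without empty replicate 3 (adjusted p 0.0826) or with only the groups compared (adjusted p 0.121). The difference of both from SETBP1 shrank to -0.25 without SETBP1 replicate 3 (adjusted p 0.00291) and did not pass with only the groups compared (adjusted p 0.0539; 0.00112 to 0.0539 over 21 alternatives). The difference of NRAS from empty also passed with DESeq2 (adjusted p 0.0495), library-size scaling (0.00862), upper-quartile scaling (0.0254) and only the groups compared (7.54e-05). Over 21 alternatives the adjusted p ran from 0.00314 to 0.121 for SETBP1 against empty, from 5.45e-05 to 0.142 for NRAS against empty and from 1.81e-04 to 0.505 for both against NRAS.

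Csf1r and Csf2ra are also genes of the monocyte line, so its markers are given beside them. The summed level of 12 such markers was 14185 to 16571 normalised CPM with empty vectors, 19080, 21528 and, in replicate 3, 36738 with SETBP1, 6764 to 7805 with NRAS and 7264 to 8670 with both. In SETBP1 replicate 3 Csf1r was 1.55-fold and Csf2ra 2.08-fold the mean of the other two SETBP1 libraries. Of the 12 markers 7 passed as higher and none as lower with SETBP1 against empty, where 14.9% of all tested genes passed. With NRAS against empty 2 were higher and 6 lower (32.5% of all genes). With both against empty 4 were higher and 2 lower, near the share of all genes (40.6%). With both against NRAS 7 were higher and 1 lower (1.91%), and with both against SETBP1 3 were higher and 7 lower (42.4%). The sum was lower with both than with empty vectors in every library, although the median log2 change of the 12 markers was 0.37. A sum is weighted to its most abundant genes. The part of cell makeup in the Csf1r and Csf2ra differences was not tested, and in these bulk libraries fewer cells of a type and less RNA per cell cannot be told apart.

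**Figure D4:**
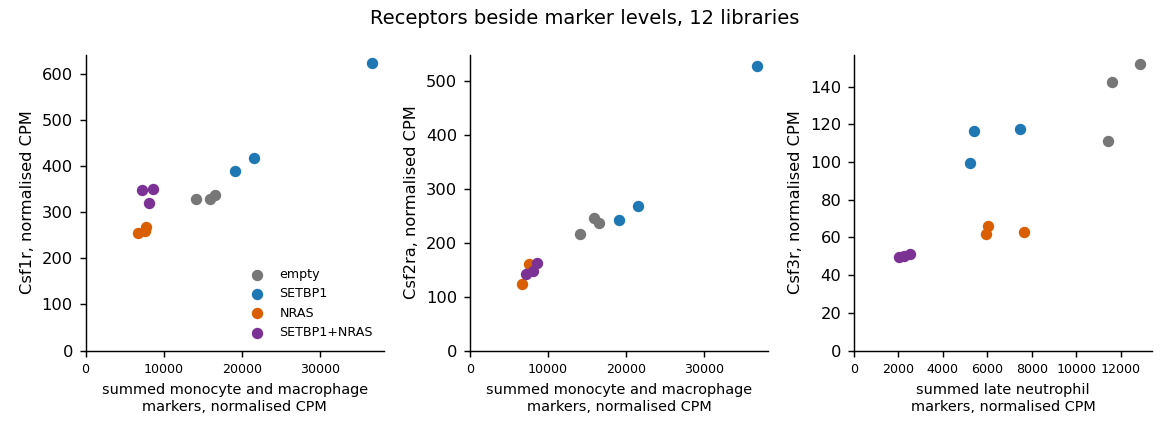
Each point is 1 library, coloured by group, with the normalised CPM of a receptor (y axis) against the summed normalised CPM of a marker list (x axis): Csf1r and Csf2ra against monocyte and macrophage markers, Csf3r against late neutrophil markers. SETBP1 replicate 3 lies at the upper right of the first 2 panels, at 36738, and the both-mutant libraries lie lowest in the third, at 2011 to 2518.

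Csf3r, the receptor of Csf3 and a gene of the granulocyte line, lies on the plus strand at chr4:126024550-126044440 (mm10). Its normalised CPM were 142, 111 and 152 with empty vectors and 118, 117 and 99.6 with SETBP1. They were 63.0, 66.2 and 61.7 with NRAS and 50.2, 49.7 and 51.4 with both. All libraries with NRAS were below all without it, and the both-mutant libraries were below the NRAS libraries. Csf3r fell 2.12-fold with NRAS (log2 -1.09, SE 0.11, adjusted p 7.19e-06) and 2.68-fold with both (log2 -1.42, SE 0.11, adjusted p 3.71e-07) against empty, and 2.21-fold with both against SETBP1 (log2 -1.14, SE 0.11, adjusted p 3.91e-06). These 3 falls passed under all 21 alternatives.

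The smaller differences of Csf3r did not pass. With both against NRAS it was log2 -0.34 (SE 0.11, adjusted p 0.205), a mean 1.26-fold lower, which passed without SETBP1 replicate 3 (adjusted p 0.0461) and with only the groups compared (0.0179), and ranged in adjusted p from 0.0179 to 0.483 over 21 alternatives. With SETBP1 against empty it was -0.28 (SE 0.11, adjusted p 0.0942), which passed without empty replicate 2 (adjusted p 0.0289; 0.0289 to 0.342 over 21 alternatives). So the ligand Csf3 had its most reads, and its receptor its lowest level, in the same 3 libraries. Summed late neutrophil markers (12 genes) were 11413 to 12876 normalised CPM with empty vectors, 5214 to 7469 with SETBP1, 5959 to 7625 with NRAS and 2011 to 2518 with both, and their part in the Csf3r differences was not tested. Of these 12 markers 7 passed as lower and 2 as higher with NRAS against empty, beside 32.5% of all tested genes. With both 10 were lower against empty (40.6%), and 8 lower and 1 higher against SETBP1 (42.4%). Csf3r fell in these comparisons. In those in which it did not pass, both against NRAS and SETBP1 against empty, 10 markers were lower in each, beside 1.91% and 14.9%.

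Csf2ra, the alpha chain that binds Csf2, lies on the minus strand at chr19:61223957-61228429 (mm10). In normalised CPM it stood at 245, 236 and 216 with empty vectors and 241, 267 and 528 with SETBP1. They were 151, 159 and 123 with NRAS and 148, 143 and 162 with both. All libraries with NRAS were below all without it, the NRAS and both-mutant libraries overlapped, and SETBP1 replicate 3 stood far above the other two of its group. Csf2ra fell 1.61-fold with NRAS (log2 -0.69, SE 0.22, adjusted p 0.0300) and 1.54-fold with both (log2 -0.63, SE 0.22, adjusted p 0.0372) against empty, and 2.29-fold with both against SETBP1 (log2 -1.20, SE 0.22, adjusted p 7.74e-04; log2 -0.75, adjusted p 1.68e-06, without SETBP1 replicate 3). With SETBP1 against empty the difference was 0.57 (SE 0.22, adjusted p 0.0892), which was 0.13 without SETBP1 replicate 3 (adjusted p 0.367) and passed without SETBP1 replicate 1 (adjusted p 0.0130) and with DESeq2 (log2 0.58, adjusted p 0.0476), in a range of 0.0130 to 0.367 over 21 alternatives.

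The falls of Csf2ra against empty kept their direction under 21 alternatives but not their call. For NRAS the adjusted p was 0.0868 without empty replicate 1, 0.0729 without empty replicate 2, 0.0652 without NRAS replicate 1 and 0.113 without NRAS replicate 3, in a range of 1.70e-06 to 0.113. For both mutants it was 0.0990, 0.0835 and 0.0567 without empty replicates 1, 2 and 3, 0.0502 without NRAS replicate 1, and 0.0968, 0.108 and 0.0644 without both-mutant replicates 1, 2 and 3, in a range of 5.84e-08 to 0.108.

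Il3ra, the alpha chain that binds interleukin 3, lies on the plus strand at chr14:14346275-14356011 (mm10) and overlaps the antisense gene Gm48860. Its normalised CPM were 15.0, 12.8 and 12.8 with empty vectors and 13.6, 11.8 and 17.5 with SETBP1. They were 10.2, 11.4 and 5.45 with NRAS and 10.1, 5.63 and 9.15 with both. All 6 libraries with NRAS were below all 6 without it. Il3ra fell 1.73-fold with both against SETBP1 (log2 -0.79, SE 0.27, adjusted p 0.0321), while against empty the differences of -0.60 with NRAS (SE 0.27, adjusted p 0.111) and -0.72 with both (SE 0.27, adjusted p 0.0514) did not pass.

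The calls for Il3ra, the lowest of the receptors per kb, changed with single libraries and settings. The fall against SETBP1 did not pass with only the groups compared (adjusted p 0.0588) or without SETBP1 replicate 3 (adjusted p 0.0565), both-mutant replicate 2 (0.138) or both-mutant replicate 3 (0.0548), in a range of 0.0146 to 0.138 over 21 alternatives. The difference of NRAS from empty passed without SETBP1 replicate 3 (adjusted p 0.0381) and with only the groups compared (0.0262; 0.0262 to 0.367 over 21 alternatives). The difference of both from empty passed without SETBP1 replicate 3 (adjusted p 0.0135), NRAS replicate 3 (0.0249) or both-mutant replicate 1 (0.0490). It also passed with DESeq2 (0.0378), limma-voom (0.0433), library-size scaling (0.0228), upper-quartile scaling (0.0352), no low-count filter (0.0489) and only the groups compared (0.00387), so 9 of 21 alternatives passed in a range of 0.00387 to 0.199. Mast cells and basophils also carry this receptor: the sum of 9 of their markers was 1414 to 1446 normalised CPM with empty vectors, 768 to 1001 with SETBP1, 548 to 936 with NRAS and 350 to 478 with both. Of 8 such markers tested 7 passed as lower with NRAS and 6 with SETBP1 against empty, beside 32.5% and 14.9% of all genes. With both 6 were lower against empty (40.6% of all genes), and 4 lower and 1 higher against SETBP1 (42.4%). The part of these cells in the differences of Il3ra and the beta chains was not tested.

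Csf2rb, the beta chain shared by the receptors for Csf2, interleukin 3 and interleukin 5, lies on the plus strand at chr15:78325752-78353847 (mm10). The empty and SETBP1 levels were 422, 405 and 513 and 367, 377 and 341 normalised CPM, respectively. They were 390, 393 and 413 with NRAS and 390, 410 and 389 with both. The SETBP1 libraries were below all others, and the remaining groups overlapped. Csf2rb fell 1.24-fold with SETBP1 against empty (log2 -0.30, SE 0.08, adjusted p 0.0300), and was at -0.16 with NRAS (SE 0.08, adjusted p 0.160), -0.17 with both (SE 0.08, adjusted p 0.124) and 0.13 with both against SETBP1 (SE 0.08, adjusted p 0.226). The fall with SETBP1 did not pass without empty replicate 1 (adjusted p 0.0647) or empty replicate 3 (0.148, log2 -0.19), with the replicate block (0.0534) or with only the groups compared (0.168), in a range of 0.0107 to 0.168 over 21 alternatives. The difference of both from empty passed with library-size scaling (log2 -0.29, adjusted p 0.0232), upper-quartile scaling (0.0445) and only the groups compared (0.0302), in a range of 0.0232 to 0.513.

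Csf2rb2, the second mouse beta chain, lies beside Csf2rb on the minus strand at chr15:78282507-78305721 (mm10). In normalised CPM Csf2rb2 was at 37.3, 42.2 and 61.1 with empty vectors and 44.6, 43.1 and 55.1 with SETBP1. They were 26.7, 31.4 and 29.7 with NRAS and 32.2, 31.4 and 32.7 with both. All libraries with NRAS were below all without it. Csf2rb2 fell 1.60-fold with NRAS (log2 -0.68, SE 0.17, adjusted p 0.00652) and 1.46-fold with both (log2 -0.54, SE 0.17, adjusted p 0.0174) against empty, and 1.48-fold with both against SETBP1 (log2 -0.57, SE 0.17, adjusted p 0.0136). The fall with both against empty was -0.32 without empty replicate 3 (adjusted p 0.101) and did not pass without both-mutant replicate 2 (adjusted p 0.0558), in a range of 0.00216 to 0.101 over 20 alternatives.

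**Figure D5:**
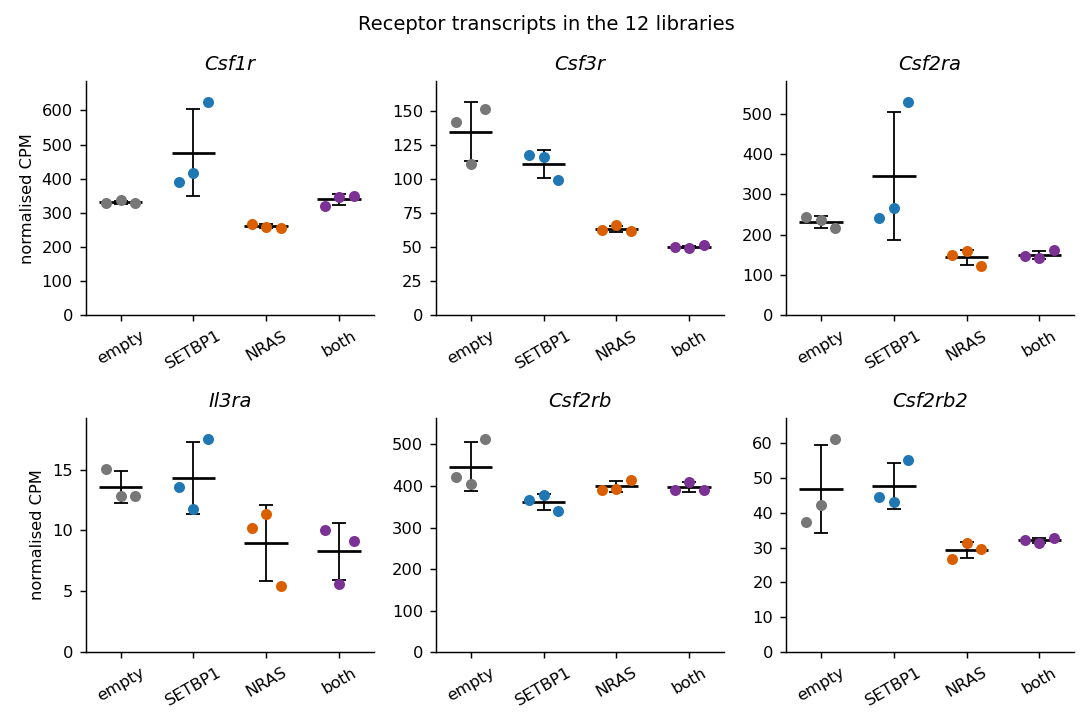
Each panel gives the normalised CPM (y axis, from 0) of 1 receptor gene in the 3 libraries of each group, with the mean as a bar and the SD as error bars. Csf3r, Csf2ra, Il3ra and Csf2rb2 lie lower in all 6 libraries with NRAS than in the 6 without it, and Csf1r and Csf2ra are highest in SETBP1 replicate 3, at 624 and 528.

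The 2 beta-chain genes are shown in sequence because their reads can be confused. Their coding sequences are 2688 bases (Csf2rb) and 2634 bases (Csf2rb2) long, and over 2628 aligned bases 125 differ, which leaves 95.2% identical. Of all 50-base windows of the Csf2rb2 coding sequence 26.58% also occur in Csf2rb, and of all 100-base windows 11.28%, so reads from such windows cannot be assigned by sequence alone, and the read length and the rule for shared reads are not given in the sources used here. The stretch below differs most, at 16 of 90 bases (capitals). It covers coding bases 308 to 397 of Csf2rb, at chr15:78338897-78338986 on the plus strand, and coding bases 311 to 400 of Csf2rb2, at chr15:78294345-78294434 on the minus strand (mm10).
Csf2rb: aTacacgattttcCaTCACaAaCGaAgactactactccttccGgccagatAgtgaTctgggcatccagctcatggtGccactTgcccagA
Csf2rb2: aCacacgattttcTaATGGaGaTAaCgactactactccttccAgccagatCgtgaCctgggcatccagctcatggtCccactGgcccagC
A second stretch, coding bases 662 to 751 of Csf2rb and 665 to 754 of Csf2rb2, holds 0 differences and shows where the 2 genes cannot be told apart.
Both genes: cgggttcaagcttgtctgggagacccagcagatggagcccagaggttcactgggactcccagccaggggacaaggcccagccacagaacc

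As counted, Csf2rb2 made up 9.40% ± 1.27 of the reads of both beta chains with empty vectors, 11.7% ± 1.98 with SETBP1, 6.83% ± 0.513 with NRAS and 7.49% ± 0.345 with both (SD, n = 3). The share was thus lower in the groups with NRAS, in which Csf2rb2 fell and Csf2rb did not pass. With the counts of both genes summed, the fall of the beta chain with SETBP1 against empty had an adjusted p of 0.0498. Since the genes may exchange reads, the separate levels of Csf2rb and Csf2rb2 are uncertain.

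The 3 receptor genes that passed as lower with NRAS, Csf3r, Csf2ra and Csf2rb2, are shown with the bases before their start, because they moved together. The sequences are those of RefSeq (GRCm38.p6), up to 250 bases, ended where the GENCODE gene begins if that lies further out, which leaves 141 bases for Csf3r and 239 for Csf2ra. Motifs were searched in windows from 250 bases before to 50 after the RefSeq start, for which 6 of the 9 genes had an entry. Capitals mark matches on either strand to TGANTCA (AP-1), TGACGTCA (CRE), GAGGAAG (an ETS site) and TTNNGNAA (C/EBP). Among 32851 such windows of all genes 7.8% held the first motif, 1.8% the second, 13.6% the third and 40.7% the fourth.
Csf3r, chr4:126024409-126024549, plus strand: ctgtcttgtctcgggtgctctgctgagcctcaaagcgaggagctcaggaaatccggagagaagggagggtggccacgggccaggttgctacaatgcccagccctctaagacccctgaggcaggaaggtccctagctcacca
Csf2ra, chr19:61228430-61228668, minus strand: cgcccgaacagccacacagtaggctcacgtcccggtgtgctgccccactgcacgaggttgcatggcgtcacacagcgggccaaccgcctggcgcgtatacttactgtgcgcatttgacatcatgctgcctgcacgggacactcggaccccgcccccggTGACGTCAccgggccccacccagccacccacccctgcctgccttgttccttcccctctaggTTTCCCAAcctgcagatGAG
Csf2rb2, chr15:78305722-78305971, minus strand: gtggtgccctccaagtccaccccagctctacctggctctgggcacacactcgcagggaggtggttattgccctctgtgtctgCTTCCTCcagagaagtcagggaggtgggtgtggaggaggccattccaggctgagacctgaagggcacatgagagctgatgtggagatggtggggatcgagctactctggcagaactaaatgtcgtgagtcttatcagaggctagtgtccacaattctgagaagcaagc
The ETS letters stood once in the Csf3r window and at 2 places each in those of Csf2ra and Csf2rb2. By the GENCODE bounds the Csf3r match lies inside the gene, 1 Csf2ra match crosses the gene's edge, of which the last capitals printed are the beginning, and the other, which overlaps it, lies inside. Of the Csf2rb2 matches 1 lies before the start and 1 after it. The C/EBP letters stood once in Csf2ra and 2 times in Csf2rb2, both after the start, and the CRE letters once in Csf2ra. Of the other 3 genes searched, Il3ra and Csf2 each held the C/EBP letters once and no other motif, and Csf1 held none. The ends of the Il3ra and Csf2 windows were not found in a transcript of their gene. The Csf2 window, chr11:54249850-54250149, lies wholly before the GENCODE gene, which begins at 54249667, so the bases next to that start were not searched. A match describes the letters and is no evidence that a factor binds.

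Ratios per kb place ligand, alpha chain and beta chain side by side. Csf2rb to Csf2ra was 0.690 ± 0.135 with empty vectors, 0.424 ± 0.170 with SETBP1, 0.997 ± 0.171 with NRAS and 0.940 ± 0.0836 with both (SD, n = 3). As counted, the alpha chain thus exceeded the beta chain in the groups without NRAS and was close to it in the groups with NRAS. The SETBP1 ratio ran from 0.230 in replicate 3 to 0.541, and reads shared with Csf2rb2 leave the beta chain level uncertain. Csf1r to Csf3r, the monocyte receptor over the granulocyte receptor, was 1.79 ± 0.336, 3.15 ± 1.17, 2.94 ± 0.115 and 4.83 ± 0.233 in the same order. Csf1r to its ligand Csf1 was 30.1 ± 2.94, 41.0 ± 9.94, 12.9 ± 2.59 and 15.0 ± 1.65, and Csf2rb to Il3ra was 16.2 ± 3.00, 12.8 ± 3.10, 24.2 ± 11.1 and 25.1 ± 9.14. The ratios were not tested.

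For the 7 tested genes no interaction passed. The largest interaction was that of Csf2ra, at log2 -0.51 (SE 0.31, adjusted p 0.496), followed by Csf2rb at 0.30 (SE 0.12, adjusted p 0.346). Without SETBP1 replicate 3 these were -0.07 (adjusted p 0.854) and 0.25 (adjusted p 0.263), so the size and rank of the Csf2ra value rest on that library. The adjusted p over 20 alternatives ran from 0.156 to 0.854 for Csf2ra and from 0.186 to 0.605 for Csf2rb. The other 5 lay between -0.19 for Il3ra (SE 0.39, adjusted p 0.838) and 0.11 for Csf2rb2 (SE 0.23, adjusted p 0.854). These standard errors, up to 0.39, leave room for interactions of that order.

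The receptors' signalling partners were counted from lists written from general knowledge. Of 24 receptor-proximal signalling genes (kinases, adaptors and phosphatases at the receptor) 7 passed as lower and none as higher with SETBP1 against empty, where the largest falls were Jak2, the kinase bound to the beta chain, by log2 -1.02 (adjusted p 0.00147), Gab2 (-0.73) and Jak1 (-0.60). With NRAS 2 were higher and 6 lower, with the adaptor Gab1 at -1.23 (adjusted p 0.00216), and with both 2 were higher and 8 lower. The shares of all tested genes that passed were 14.9%, 32.5% and 40.6% in these comparisons, and the counts with NRAS and with both, 8 and 10 of 24, are near them. None of the 24 passed between both and NRAS with edgeR.

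Among 13 feedback genes and targets of STAT5 and STAT3, factors that these receptors switch on, none passed with SETBP1, 4 were higher and 3 lower with NRAS, and 5 were higher and 4 lower with both, each against empty. With NRAS the adaptor Dok2 rose by log2 2.31 (adjusted p 4.92e-08) and the survival gene Bcl2l1 by 1.59 (adjusted p 3.98e-09), whereas Socs2, an inhibitor of cytokine signalling, fell by 1.37 (adjusted p 4.72e-05). The list did not move one way, and of all tested genes 14.9%, 32.5% and 40.6% passed in the same comparisons.

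Of 12 myeloid transcription factors reported to act on these receptor genes, 2 passed as higher and 3 as lower with SETBP1, 7 as lower and none as higher with NRAS, and 1 as higher and 9 as lower with both, beside 14.9%, 32.5% and 40.6% of all tested genes. With SETBP1 Irf8, a monocyte factor, rose by log2 0.81 (adjusted p 0.00628) and Cebpb by 0.69 (adjusted p 0.0432), whereas Fli1 fell by 0.56 (adjusted p 0.00578). With NRAS Klf4 fell by 2.27 (adjusted p 2.26e-04), Gfi1 by 0.94 (adjusted p 7.65e-06) and Runx1 by 0.78 (adjusted p 0.00103). Between both and NRAS the granulocyte factor Cebpe fell by 0.96 (adjusted p 0.0243), alone among the 12.

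Of 8 genes that act on the stability of colony-stimulating factor mRNA, 1 was higher with SETBP1, 5 with NRAS and 4 with both, and none was lower, where 14.9%, 32.5% and 40.6% of all tested genes passed in either direction. Zfp36, which encodes a protein that binds AU-rich elements and speeds the decay of such mRNA, rose by log2 0.66 with SETBP1 (adjusted p 0.00205), 0.94 with NRAS (adjusted p 6.99e-06) and 1.25 with both (adjusted p 2.82e-07). The 8 genes were not split into those that speed and those that slow decay, so their counts give no direction for mRNA stability. Of 13 other growth factor receptors and ligands 10 were tested: 1 was higher with SETBP1, 2 higher and 2 lower with NRAS, and 2 higher and 4 lower with both, beside the same shares of all genes, to which the first 2 counts are near. The interleukin 7 receptor Il7r rose by 1.05 with SETBP1 (adjusted p 0.0330), by 1.78 with NRAS (adjusted p 3.77e-04) and by 1.15 with both against NRAS (adjusted p 0.0315), and the stem cell factor receptor Kit fell by 1.34 with NRAS (adjusted p 0.00771).

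The genes whose pattern was most like each member's were found as those with the smallest root mean square difference of centred log2 CPM over the 12 libraries, among 10985 genes. For Csf3 this was Mmp10, a matrix metalloproteinase, at 0.585 on the log2 scale, against 2.25 for Csf3 about its own mean. Mmp10 had no read with empty vectors or SETBP1, 2.41 ± 0.639 normalised CPM with NRAS and 10.3 ± 5.93 with both (SD, n = 3). The next were Tnnt2 (1.01) and Adcy2 (1.03), both farther from it. Csf1 was nearest to Slc39a6 (0.144), Csf1r to Bnip3 (0.0779), Csf2ra to Acaa1a (0.154), Csf3r to Mtus1 (0.106), Csf2rb2 to Birc3 (0.132), Csf2rb to Shoc2 (0.0710) and Il3ra to Phyhd1 (0.226). Csf2rb varied least itself, by 0.135 about its mean, so its likeness carries little.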

How the data were processed

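RNA was measured in 12 libraries of transduced mouse marrow, 3 in each of 4 groups named by the labels' transduction field. Libraries were made with a SMART-Seq kit for ultra low input, per the labels' protocols. The authors deposited whole-number counts per gene, not normalised, and per the submitters' processing notes STAR, DESeq2 and mm10 were used, with no role or version stated. The counter, its strand rule and its treatment of shared reads are not given in the sources used here. From these counts, genes were kept by filterByExpr (minimum count 10, minimum total 15) and fitted with edgeR 4.0.16 in R 4.3.3 by a quasi-likelihood test, two-sided, over all 12 libraries as 4 group means with trimmed-mean (TMM) scaling. P-values were adjusted by Benjamini-Hochberg over 10993 genes. The standard error is the log2 change divided by the root of the F statistic. Levels per kb use exon lengths of GENCODE M21 on mm10.

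The 9 members, gene lists and alternatives were chosen with earlier results of these data known. Named genes are all 9 members, the 3 genes nearest each member in pattern, and up to 3 called genes of each list with the largest change per comparison. Csf3 was left out of the tests because it was chosen for its rise. The floor for a group at 0 is 3 counts in its library of highest floor, and covers counting error only. Total counts of 7085894 to 8864919 per library set the precision of low genes.

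Alternatives were DESeq2 1.42.0, limma-voom (limma 3.58.1), DESeq2-style, upper-quartile and library-size scaling, no low-count filter, only the groups compared, the replicate number as a block, an adjusted p under 0.01, both beta chains summed, and each library left out in turn. The edgeR, DESeq2 and limma-voom fits were tested on simulated data for both mutants against NRAS.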

Additional observations from a re-analysis of the deposited data

How the results depend on the processing

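Of the 7 tested genes, those that passed for SETBP1 against empty (2, where 14.9% of all genes passed) numbered 1 with the replicate block (10.7% of all genes), 0 with only the groups compared (1.03%), 0 at an adjusted p under 0.01 (3.45%) and 0 to 3 with a library left out (0 without empty replicate 1, 4.44%, or replicate 3, 3.50%). For both mutants against empty (4, 40.6%) the count was 2 at an adjusted p under 0.01 (28.4%) and 2 to 5 with a library left out (2 without empty replicate 3, 32.8%, or both-mutant replicate 2, 34.1%). For both against NRAS (0, 1.91%) it was 2 with only the groups compared (8.37%), Csf1r (adjusted p 4.23e-04) and Csf3r (0.0179), and 0 to 2 with a library left out (2 without SETBP1 replicate 3, 7.52%). With a library left out it was 3 to 6 for NRAS against empty (4), beside 24.1% to 47.0% of all genes. It was 5 to 6 for both against SETBP1 (6), beside 33.0% to 46.5%, and 0 for the interaction, beside 0.00898% to 0.990%. The fitted log2 difference of Csf3 between both and NRAS was 3.12 to 4.16 with a library left out. The Csf2rb2 share was 8.77% to 10.0% with empty vectors, 10.5% to 12.4% with SETBP1, 6.55% to 7.05% with NRAS and 7.36% to 7.69% with both.

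Among 910 single-gene values under the alternatives, 827 kept direction and side of the threshold, 27 newly passed, 32 no longer passed and 24 changed sign, with 0 of the 24 past the threshold in either fit and a fitted log2 value of at most 0.19 in size; the cause was not tested. For both against empty Csf1r went to -0.087 with library-size and -0.028 with upper-quartile scaling, for SETBP1 against empty Csf2rb2 went to -0.024 with library-size scaling, and for both against NRAS Csf2rb went to 0.0011 with the beta chains summed. The other 20 sign changes came with a library left out, over which the log2 values ran as follows. For SETBP1 against empty they were -0.11 to 0.27 for Csf2rb2 and -0.098 to 0.21 for Il3ra, both below 0 without SETBP1 replicate 3. For both against NRAS they were -0.041 to 0.14 for Csf2ra, -0.035 to 0.019 for Csf2rb and -0.38 to 0.098 for Il3ra. For the interaction they were -0.10 to 0.23 for Csf1, -0.28 to 0.096 for Csf1r, -0.13 to 0.24 for Csf2rb2, -0.15 to 0.059 for Csf3r and -0.46 to 0.022 for Il3ra.

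Library-size scaling moved the median log2 change of all genes by -0.09 for NRAS and -0.12 for both against empty, and under it the calls over all genes were 1379 higher and 2265 lower, and 1656 higher and 2908 lower, in place of 1868 and 1708, and 2282 and 2180. Same-numbered libraries showed little shared deviation from their group means: their deviations correlated at -0.127 to 0.124, and 1 of 12 libraries was closest to its own number. With 3 libraries a group, this cannot show whether replicate numbers pair the libraries. Under the block Csf2rb with SETBP1 was at -0.30 with an adjusted p of 0.0534. Depth limits Csf2 and the family relatives, which had few or no reads. Il3ra, with 43 to 148 reads in each library, was less limited.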
